A study of Mus musculus with 13 samples.

Results

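The response of mouse bone marrow to blood loss was examined in the middle of the first day by treating the 4 arrays labelled 12 h (n = 2) or 15 h (n = 2) after phlebotomy as 1 group, written here as 12-15 h. That group is defined by its time labels and was compared over 19938 genes with 2 control arrays of the same run of sample title numbers. The series holds 13 arrays, 1 per sample, of RNA from the femoral marrow of 6 week-old male C57BL/6 mice, and no mutant allele or drug is named for any group. Phlebotomised mice had lost 500 µL of blood through a puncture behind the eye, whereas the 3 controls were sampled at baseline. Further arrays came from 4 h (n = 1), 9 h (n = 3) and 48 h (n = 2). The labels used here give neither a sham puncture for the controls nor the hour of day at collection. Nor do they state that the arrays of a group came from different animals, and a p-value here reflects only array-to-array spread, part of which may be technical.

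Loss of red cells lowers oxygen delivery to the kidney, which answers by secreting erythropoietin. The hormone binds its receptor on erythroid progenitors in the marrow, and the kinase JAK2 then phosphorylates the transcription factor STAT5, which switches on survival genes, feedback inhibitors such as Cish and Socs3, and the hormone erythroferrone (Erfe). Erythroferrone travels to the liver and lowers hepcidin, so that more iron reaches the growing erythroblasts, whose division also calls for new ribosomes, chaperones and amino acids.

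Levels are the log2 values that the authors derived with RMA from Affymetrix Mouse Gene 1.0 ST arrays, and a difference of 1 on this scale is a 2-fold change. A gene's level also depends on its probes, so levels are compared between arrays and not between genes. The arrays fall in 2 runs by their title numbers alone, and the labels name no processing batch. The third control lies in a smaller run of 3 arrays with higher medians (7.774 to 7.796, against 6.984 to 7.025 in the larger run of 10). In that smaller run 62.3% of the probe sets carry an identical value on 2 or 3 of its arrays. No set of 3 arrays of the larger run exceeded 0.11%. The third control was therefore left to an alternative fit, which treats the run as a term. Over all genes the 6 arrays compared here correlated at 0.991 to 0.997. The 2 controls differed by more than 1 on the log2 scale in 79 genes, the 2 arrays at 12 h in 21 and those at 15 h in 29. The fewest of any pair was 6, for 12 h replicate 2 and 15 h replicate 1. Control replicate 1 differed by that much from the arrays at 12-15 h in 27 to 55 genes, and control replicate 2 in 59 to 107. By this count control replicate 1 was nearer to each array at 12-15 h than to the other control. The 9 defining marrow markers measured lay between 6.39 (Vpreb1, of B cell precursors) and 13.56, beside a median of 7.33 over all genes.

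At 12-15 h the genes that rose most were Cish, 3.69-fold, an inhibitor of cytokine signalling induced by STAT5, and Erfe, 3.05-fold, the erythroid hormone that lowers hepcidin. Plek2, a membrane-binding protein of erythroblasts, rose 2.72-fold, Sema3a, a secreted guidance factor, 2.59-fold, and Col10a1, the collagen of hypertrophic cartilage, 2.06-fold. The largest falls were those of transcripts of the gut epithelium, Fabp2, Reg3g, Reg3b and Clca4b, which were 4.10-, 3.60-, 3.20- and 2.76-fold lower. Smaller rises included 6 of 25 listed ribosome biogenesis genes, 4 of 19 heat shock proteins, 2 of 8 subunits of the CCT chaperonin and 2 of 18 cytosolic aminoacyl-tRNA synthetases. In all, 53 genes rose (0.266% of the 19938 tested) and 12 fell (0.0602%), together 65 or 0.326%, at a Benjamini-Hochberg adjusted p under 0.05 in limma. At an unadjusted p under 0.05 the fit held 2404 genes, 12.1% of those tested.

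**Figure D1:**
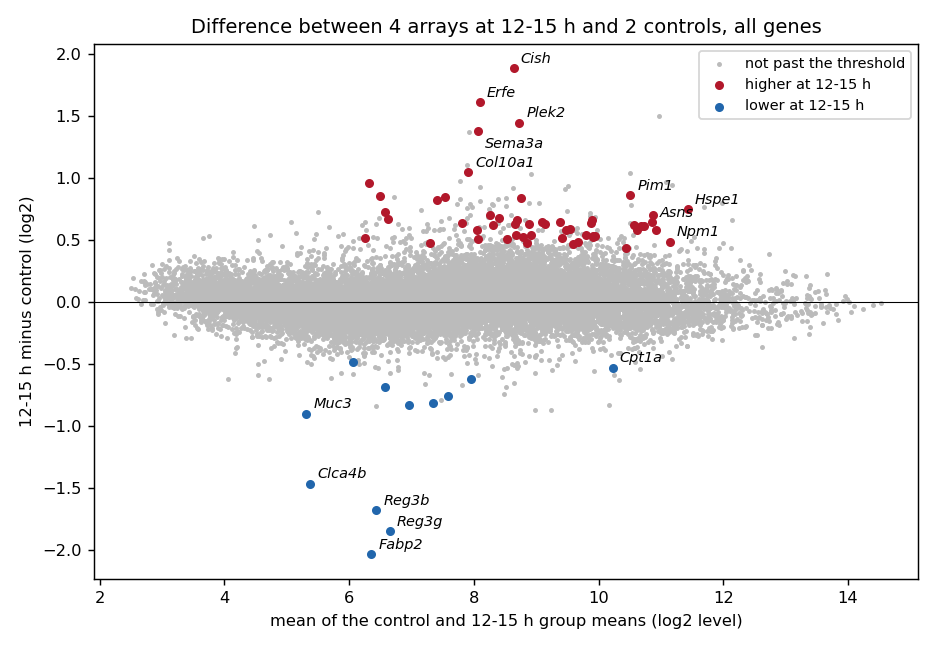
Difference between the mean of the 4 arrays at 12-15 h and the mean of 2 controls (log2, vertical axis) against the mean of both group means (log2 level, horizontal axis) for 19938 genes. The 53 genes that rose are red, the 12 that fell are blue, and grey points did not pass; Cish and Erfe lie highest among the coloured points and Fabp2 lowest.

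The rises were mostly modest, with a median of 1.54-fold and a range of 1.35- to 3.69-fold. Only 5 of the 53 exceeded 1 on the log2 scale, while 4 of the 12 falls did. In each of the 65 genes all 4 arrays at 12-15 h lay beyond both controls. That arrangement was frequent among all genes: 2380 (11.9%) had the 4 arrays above both controls and 2031 (10.2%) had them below, with no test applied. The count of 65 leaned on single arrays. It was 195 without control replicate 1 (37 of them among the 65), 21 without control replicate 2, 30 and 11 without 12 h replicates 1 and 2, 10 and 15 without 15 h replicates 1 and 2, and 37 without either 48 h array, which enter only the estimate of spread.

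Taken apart, 12 h differed from control in 10 genes (0.0502%), 6 of them higher (0.0301%) and 4 lower (0.0201%), and 15 h in 22 genes (0.110%), 15 higher (0.0752%) and 7 lower (0.0351%). At an unadjusted p under 0.05 these comparisons held 9.72% and 9.49% of all genes. Each of the 10 genes called at 12 h was also called at 15 h in the same direction, 6 higher (0.0301%) and 4 lower (0.0201%), or 0.0502% of the genes tested; both comparisons share the 2 controls. These genes were Cish, Erfe, Plek2, Sema3a, Ankrd36 and Map2k3os on the rising side and Fabp2, Reg3g, Reg3b and Clca4b on the falling side. The count of 10 became 3 without 12 h replicate 2, 2 without either 15 h array and 5 without either 48 h array. The 12 h count was 3 without 12 h replicate 2 and 6 without either 15 h array. The 15 h count was 8 without control replicate 2, 14 without either 12 h array, 3 and 2 without 15 h replicates 1 and 2, and 13 without either 48 h array.

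Among the erythroid genes called at both times, Cish stood at log2 levels of 7.56 and 7.83 in the controls, 9.23 and 9.75 at 12 h, and 9.88 and 9.46 at 15 h. The rise was 1.88 ± 0.16 (standard error, adjusted p = 0.00145 in limma), or 1.80 at 12 h and 1.97 at 15 h. Every array at 12-15 h was far above both controls, and the 2 times overlapped. Erfe had levels of 7.31 and 7.26 in the controls, 8.67 and 8.84 at 12 h, and 9.07 and 9.01 at 15 h. Its controls were nearly equal and its 15 h arrays both lay above its 12 h arrays. The pooled rise of Erfe was 1.61 ± 0.11 (adjusted p = 0.00075), the smallest p of the comparison. Plek2 measured 7.73 and 8.27 in the controls, 9.33 and 9.34 at 12 h, and 9.61 and 9.50 at 15 h. Its controls lay farther apart than its 12 h or 15 h arrays did, and the lowest array at 12-15 h was still above both; the rise was 1.44 ± 0.14 (adjusted p = 0.0028). Elsewhere in the same run Erfe stood at 8.14 on the 4 h array, 9.25 on the 9 h array and 7.81 on both 48 h arrays, and Cish at 9.15, 10.18, 8.21 and 8.31. For both genes the 12-15 h levels thus lay below that 9 h array and above the 48 h arrays. Plek2 differed from them in being at 9.29 and 9.23 at 48 h, near its 12 h levels.

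**Figure D2:**
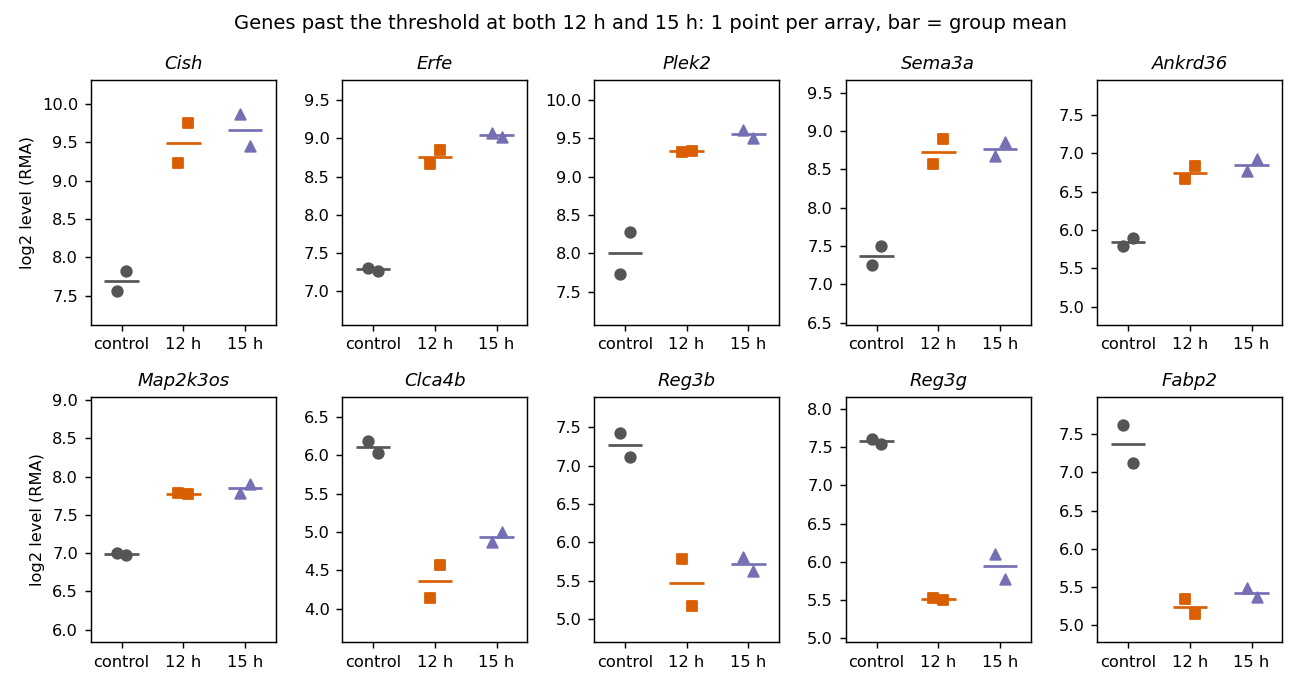
Log2 levels of the 10 genes called at both 12 h and 15 h, with 1 point per array, a bar at each group mean, and the same span of the vertical axis in every panel. Circles are the 2 controls, squares 12 h and triangles 15 h; the first 6 genes have all 4 phlebotomy arrays above both controls and the last 4 have them below.

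Sema3a, made by bone and nerve cells among others, had levels of 7.25 and 7.50 in the controls, 8.57 and 8.89 at 12 h, and 8.68 and 8.85 at 15 h. The groups were wide apart and the 2 times interleaved, with a rise of 1.37 ± 0.11 (adjusted p = 0.00108). Ankrd36, an ankyrin repeat gene, went from 5.79 and 5.89 to 6.66 and 6.84 at 12 h and 6.77 and 6.93 at 15 h. The rise was 0.96 ± 0.09 (adjusted p = 0.00257), in a gene dimmer than the median of all genes. Map2k3os, an antisense transcript named for the stress kinase gene Map2k3, went from 7.01 and 6.98 to 7.78 and 7.78 at 12 h and 7.79 and 7.90 at 15 h. Its arrays varied little within each group, with a rise of 0.82 ± 0.08 (adjusted p = 0.0028). Map2k3 itself, looked up after the values were seen, lay above both controls in all 4 arrays with a difference of 0.40 ± 0.10 that did not pass (adjusted p = 0.135).

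Of the 17 measured erythropoietin and STAT5 targets, 4 rose, none fell and 13 did not pass. All 4 arrays lay above both controls in 7 (41.2%, against 11.9% of all genes). The list's median difference was 0.22, against -0.00333 over all genes. The fourth to rise was Pim1, a survival kinase, at 9.92 and 10.23 in the controls, 10.78 and 11.02 at 12 h, and 10.94 and 11.01 at 15 h. The groups did not overlap, and the rise was 0.86 ± 0.11 (adjusted p = 0.0196). Pim1 lost its call without 12 h replicate 2 or either 15 h array, with adjusted p up to 0.0877. Podxl, Osm and Socs3 had every array above both controls without passing. Podxl, a sialomucin of progenitors, measured 7.41 and 7.27 in the controls, 7.98 and 8.32 at 12 h, and 8.87 and 8.62 at 15 h. Both 15 h arrays of Podxl exceeded both 12 h arrays, and the pooled difference was 1.10 ± 0.19 (adjusted p = 0.0525). At 15 h alone Podxl passed, with a difference of 1.40 ± 0.13 (adjusted p = 0.00795). The pooled difference of Podxl passed under 5 of 18 alternative settings and not under the other 13. Where it passed, adjusted p ran from 0.0048 to 0.0388, and was 0.0204 in the fit without 12 h replicate 1. Osm, the cytokine oncostatin M, differed by 0.63 ± 0.13 (adjusted p = 0.0714), and Socs3, the feedback inhibitor, by 0.33 ± 0.08 (adjusted p = 0.135). Socs2, another inhibitor, overlapped the controls at 0.31 ± 0.16, and Bcl2l1, which encodes the survival protein BCL-XL, and Pim3 showed differences of 0.01 and 0.00. The list's median moved with the controls: it was 0.405 without control replicate 1 and 0.118 without control replicate 2.

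Upstream of these targets nothing passed. Among 20 genes of the erythropoietin and Kit receptor chain, 0 were called either way in limma, and the median difference was -0.06. An unadjusted p under 0.05 was found for 1 of them and for 12.1% of all genes. All 4 arrays lay below both controls in 5 (25%, against 10.2% of all genes) and above both in 0. Epor, the receptor, measured 9.35 and 9.98 in the controls, between 9.46 and 9.54 on the 4 arrays at 12-15 h, and differed by -0.16 ± 0.15 (adjusted p = 0.707). The 4 arrays fell between the controls, so the sign rested on which control was used. Kit, the receptor of stem cell factor, stood lower on all 4 arrays (8.72 to 8.93, against 9.07 and 9.14), yet its difference of -0.28 ± 0.09 did not pass (adjusted p = 0.264). Jak2 also lay below both controls, at -0.16 ± 0.08 (adjusted p = 0.464). So did Stat5a, Grb2 and Ptpn6, at -0.10, -0.11 and -0.13, without passing.

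On the iron side, Erfe alone rose among 24 hepcidin regulators and members of the bone morphogenetic protein pathway, whose median was 0.02. All 4 arrays lay above both controls in 3 (Erfe, Twsg1 and Bmpr1a) and below both in 3 (Bmp4, Bmp6 and Smad4). Each share was 12.5%, against 11.9% and 10.2% of all genes. Twsg1, a secreted binder of these proteins, measured 9.03 and 8.75 in the controls, 9.14 and 9.03 at 12 h, and 9.10 and 9.05 at 15 h. The second 12 h array barely exceeded the first control, and the difference of 0.19 ± 0.09 did not pass (adjusted p = 0.453). Bmp6, the ligand that drives hepcidin in the liver, lay lower on all 4 arrays with a difference of -0.35 ± 0.11 (adjusted p = 0.244). Bmpr1a differed in the other direction, by 0.45 ± 0.19 (adjusted p = 0.397). Hamp, hepcidin itself, was at 4.75 and 5.16 in the controls and 4.63 to 4.86 at 12-15 h, near the dim end of the array, with a difference of -0.21 ± 0.12 (adjusted p = 0.546). Of 24 genes of iron uptake, storage and export, 0 passed in limma and the median was 0.04. At an unadjusted p under 0.05, 4 were higher and 1 lower, beside 1498 and 906 of all 19938 genes. Tfrc, the transferrin receptor that brings iron into erythroblasts, measured 11.53 and 12.00 in the controls, 12.24 and 12.37 at 12 h, and 12.18 on both 15 h arrays. All 4 lay above both controls, but the controls were themselves far apart, and the difference of 0.48 ± 0.12 did not pass (adjusted p = 0.148). It passed under 1 of 18 alternative settings, all 13 arrays with the run as a random block (adjusted p = 0.0325), and not under the other 17. Slc39a8, a metal importer, differed by 0.48 ± 0.10 (adjusted p = 0.078).

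The red cell's own genes showed no called change. Of 16 heme synthesis genes, 20 red cell membrane genes, 19 erythroid transcription factors and 6 globins, none passed in limma, with 2, 2, 0 and 0 at an unadjusted p under 0.05 and medians of -0.04, -0.07, -0.08 and -0.08. Nor did any of 16 erythroid survival and death genes (median -0.01, 1 at an unadjusted p under 0.05). The globins were embryonic and minor ones, since no adult globin was named by the annotation used here. Alas2, which starts heme synthesis in erythroblasts, measured 12.999 and 13.159 in the controls and 12.902 to 13.055 at 12-15 h, a difference of -0.12 ± 0.08 (adjusted p = 0.599). In a mixed tissue such as marrow, fewer cells of a type and less RNA per cell cannot be told apart. These lists differed more between the controls than between the groups. Control replicate 2 exceeded replicate 1 by a median of 0.465 over the red cell membrane genes, 0.351 over the transcription factors and 0.312 over the heme genes. Without control replicate 1 the 3 medians were -0.275, -0.196 and -0.196, and without control replicate 2 they were 0.141, 0.075 and 0.065, so their sign turned with the control.

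Of 25 ribosome biogenesis genes, 6 rose (0.266% of all genes did), none fell, 19 did not pass, and 23 had all 4 arrays above both controls (11.9% of all genes did); all 25 differences were above 0, with a median of 0.38 that stayed between 0.362 and 0.395 when any 1 array was left out. Wdr12, a large subunit assembly factor, went from 8.48 and 8.25 in the controls to 9.01 and 9.03 at 12 h and 9.02 and 9.02 at 15 h. The 4 later arrays nearly coincided, and the rise was 0.66 ± 0.09 (adjusted p = 0.0248). Nop58, a core protein of the box C/D particles that methylate ribosomal RNA, measured 9.20 and 9.16, then 9.74 and 9.79, then 9.73 and 9.77. It rose by 0.58 ± 0.08 (adjusted p = 0.0227). Npm1, the abundant nucleolar chaperone, rose by 0.48 ± 0.08 (adjusted p = 0.0453), Ddx21, a nucleolar helicase, by 0.53 ± 0.09 (adjusted p = 0.0457), and Gnl3 and Nop16, 2 further nucleolar proteins, by 0.51 and 0.54. Nop58 and Wdr12 lost their call in 5 of 8 fits that left out 1 array and Npm1 and Ddx21 in all 8, with adjusted p up to 0.151, 0.183, 0.261 and 0.272, each without control replicate 2. Ncl, which encodes nucleolin, and Fbl, which encodes fibrillarin, differed by 0.39 (adjusted p = 0.0815) and 0.10 (adjusted p = 0.611).

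**Figure D3:**
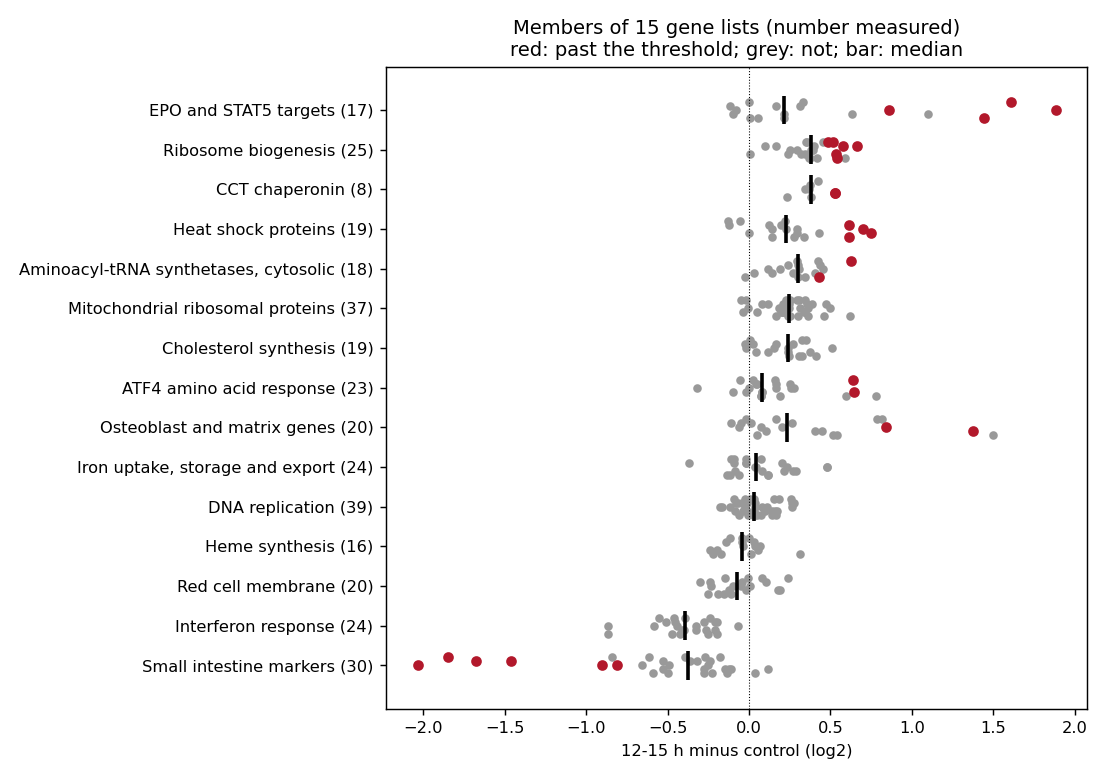
Differences between 12-15 h and control (log2, horizontal axis) for the measured members of 15 gene lists, 1 point per gene, with the number measured in brackets and a bar at each median. Red points passed the threshold and grey points did not; the ribosome biogenesis and CCT chaperonin members all lie right of 0, the interferon members all left of 0, and Cct3 and Cct8 share 1 spot.

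Among chaperones some members rose and most did not pass. Each of the 8 measured subunits of the CCT chaperonin, the ring that folds actin and tubulin, had all 4 arrays above both controls. Of all genes 11.9% did. In this list 2 passed and the median was 0.38. Cct3 measured 9.69 and 9.62 in the controls, 10.17 and 10.27 at 12 h, and 10.13 and 10.18 at 15 h, a rise of 0.53 ± 0.08 (adjusted p = 0.0384). Cct8 gave nearly the same values and the same rise, and the other 6 subunits differed by 0.23 to 0.42. Of 19 heat shock proteins 4 rose, none fell, 15 had every array above both controls (78.9%, against 11.9% of all genes), and the median was 0.22. Of the 4 risen members 3 act in mitochondria, and 2 of these are neighbours in the genome: Hspe1 and Hspd1 encode HSP10 and HSP60, the lid and barrel of the mitochondrial chaperonin, and Hspa9 encodes the mitochondrial HSP70. Hspe1 went from 11.12 and 10.99 to 11.88 and 11.74 at 12 h and 11.87 and 11.73 at 15 h, a rise of 0.75 ± 0.09 (adjusted p = 0.0102). Hspd1 went from 10.44 and 10.41 to 11.04 and 11.07 at 12 h and 11.04 and 10.99 at 15 h, a rise of 0.61 ± 0.07 (adjusted p = 0.0123). Neither pair of groups overlapped, and the 2 times lay close together. Hsph1, a cytosolic HSP110, rose by 0.70 ± 0.11 (adjusted p = 0.033), and Hspa9 by 0.61 ± 0.11 (adjusted p = 0.0482). Hsp90aa1, the inducible HSP90, lay above both controls at 0.43 ± 0.08 without passing (adjusted p = 0.0528). All 6 risen chaperone genes lost their call when control replicate 2 was left out, with adjusted p of 0.0902 for Hspd1, 0.0906 for Hspe1 and 0.179 to 0.327 for Hsph1, Cct8, Cct3 and Hspa9. Hspe1 also lost it without 15 h replicate 1, and Hspd1 without 12 h replicate 2 or 15 h replicate 1. Over the 8 fits that each left out 1 array, Hspa9 lost its call in 7 and Hsph1, Cct8 and Cct3 in 6 each.

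Genes of amino acid supply and tRNA charging were examined as 2 further lists. Of 18 cytosolic aminoacyl-tRNA synthetases, the enzymes that load tRNAs, 2 rose, none fell, and the median was 0.30. Every array lay above both controls in 14 (77.8%, against 11.9% of all genes). Tars, for threonine, went from 8.42 and 8.26 to 9.02 and 8.98 at 12 h and 8.94 and 8.93 at 15 h, a rise of 0.63 ± 0.09 (adjusted p = 0.0288). Nars, for asparagine, rose by 0.43 ± 0.07 (adjusted p = 0.0457), and Eprs, Rars and Gars differed by 0.41, 0.46 and 0.42 without passing. Of 23 targets of the amino acid response factor ATF4, 2 rose (0.266% of all genes did), none fell and 21 did not pass. The list's median was 0.08. All 4 arrays lay above both controls in 6 (26.1%, against 11.9% of all genes) and below both in 1 (4.35%, against 10.2%). Mthfd2, a mitochondrial folate enzyme, went from 9.53 and 9.61 to 10.11 and 10.19 at 12 h and 10.29 and 10.24 at 15 h, a rise of 0.64 ± 0.09 (adjusted p = 0.0236). Asns, asparagine synthetase, measured 10.33 and 10.75 in the controls, 11.12 and 11.24 at 12 h, and 11.18 and 11.20 at 15 h. The controls of Asns lay farther apart than its 4 later arrays, and the rise was 0.64 ± 0.11 (adjusted p = 0.0457). Shmt2, which feeds Mthfd2 with one-carbon units, differed by 0.59 ± 0.10 (adjusted p = 0.0525) and passed at 15 h alone. Atf4 itself differed by 0.25 (adjusted p = 0.33), and Atf3, another stress factor of the list, was lower on all 4 arrays at -0.32 (adjusted p = 0.331). Leaving out 1 array ended the calls of Tars and Mthfd2 in 5 of 8 fits, of Asns in 7 and of Nars in 8, with adjusted p up to 0.203, 0.103, 0.146 and 0.279, for Asns without 12 h replicate 2 and for the others without control replicate 2.

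The promoters of these genes are shown because heat shock and amino acid response genes are known to carry short response elements close to their start. RefSeq sequence of GRCm38.p6 was read over 250 bases before each listed start of a gene. This covered 15563 genes, including 43 of the 53 that rose and 10 of the 12 that fell. A gene counted as holding a motif if the bases before any of its listed starts held it. A pair of heat shock units, GAANNTTC or TTCNNGAA, was held by 13.3% of all these genes and by 10 of the 43 (23.3%). The C/EBP-ATF response element, TGATGNAAT or TGATGNAAC, was held by 1.32% of all and by 3 of the 43 (6.98%), Tars, Gtpbp4 and Asns. Both strands were searched, matches of one or of different motifs could overlap, and a match is a description of letters, not of binding. Hspe1 and Hspd1 are neighbours read in opposite directions from the 215 bases at chr1:55087933-55088147 (plus strand shown), so they count in the 10 as 2 genes with 1 sequence. Hsph1 is shown from chr5:149636316-149636565, Asns from chr6:7693210-7693459 and Tars from chr15:11399659-11399908, each on the minus strand and ending at the base before a listed start. Where these 3 genes have several listed starts, the sequence with the most matches of the marked motif is shown. Capitals mark the heat shock units in the first 2 sequences, where 3 overlapping matches form 1 run between Hspe1 and Hspd1, and the C/EBP-ATF element in the last 2, which in Tars lies on the opposite strand. The heat shock pairs of Asns and Tars are not marked.
Hspe1-Hspd1: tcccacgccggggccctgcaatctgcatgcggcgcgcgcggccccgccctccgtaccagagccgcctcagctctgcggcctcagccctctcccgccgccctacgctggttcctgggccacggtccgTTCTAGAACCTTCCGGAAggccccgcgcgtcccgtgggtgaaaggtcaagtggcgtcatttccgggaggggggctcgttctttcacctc
Hsph1: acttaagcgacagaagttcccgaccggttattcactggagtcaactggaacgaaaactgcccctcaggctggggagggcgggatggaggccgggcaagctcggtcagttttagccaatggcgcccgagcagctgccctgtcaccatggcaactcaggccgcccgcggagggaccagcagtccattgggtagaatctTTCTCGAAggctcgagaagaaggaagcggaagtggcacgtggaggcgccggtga
Asns: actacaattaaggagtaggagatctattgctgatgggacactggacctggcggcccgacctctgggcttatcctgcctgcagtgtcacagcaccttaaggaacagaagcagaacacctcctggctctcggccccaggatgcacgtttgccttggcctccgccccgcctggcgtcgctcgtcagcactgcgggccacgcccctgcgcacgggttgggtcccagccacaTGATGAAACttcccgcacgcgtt
Tars: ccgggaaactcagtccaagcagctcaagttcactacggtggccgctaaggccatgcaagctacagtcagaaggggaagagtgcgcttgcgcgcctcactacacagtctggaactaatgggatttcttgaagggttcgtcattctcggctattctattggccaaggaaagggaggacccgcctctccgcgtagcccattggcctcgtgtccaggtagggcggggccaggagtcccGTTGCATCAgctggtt

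The other motifs searched were the STAT core TTCNNNGAA, the E-box CACGTG and the GATA site AGATAA. Of the 15563 genes 7.73% held a STAT core, 8.12% an E-box and 9.93% a GATA site. Of the 43 risen genes 4 (9.3%), 7 (16.3%) and 1 held them. The 4 with a STAT core were Eef1e1, Nop58, Rangrf and Rrn3. Of the 10 fallen genes read, 2 held a STAT core (Reg3b and Dbp). A heat shock pair (Reg3g), an E-box (Rec114) and a GATA site (Fmo2) were held by 1 each, and a C/EBP-ATF element by 0. The windows of Cish and Erfe held none of the motifs searched, which says only that these letters are not in those 250 bases.

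The remaining 28 rises lie outside the naming rule; they are named, and sorted by known function, after their values were seen, so the sorting carries no test. Those of ribosome assembly, nucleolar RNA particles or RNA polymerase I were Wdr75, Nhp2, Pno1, Gtpbp4, Tma16, Rpp38 and Rrn3, beside Gnl3 and Nop16. Rrn3, the initiation factor of RNA polymerase I, measured 9.43 and 9.42 in the controls and 9.87 to 9.97 at 12-15 h, a rise of 0.49 ± 0.07 (adjusted p = 0.033). Ctps, Ppat, Mthfd1, Srm and Gss make CTP, purines, folate one-carbon units, spermidine and glutathione. Ctps rose by 0.58 ± 0.08 (adjusted p = 0.0288) and passed at 15 h alone as well. Timm17a, Noa1, Fastkd2 and Rexo2 act in mitochondria, in protein import, translation or RNA handling. Timm17a, a channel subunit of the inner membrane translocase, went from 9.61 and 9.52 to 10.14 and 10.25 at 12 h and 10.23 and 10.29 at 15 h, a rise of 0.66 ± 0.08 (adjusted p = 0.0102). Eef1e1 belongs to the multi-synthetase complex and Alkbh8 modifies tRNA. The other 8 were Nup43, a nucleoporin, Lipg, a lipase of endothelium, Nrcam, an adhesion molecule, the small nucleolar RNA Snora20, Vps13c, Rfesd, Pbdc1 and Rangrf. Across the 28, rises ran from 0.47 (Gtpbp4) to 0.73 (Lipg). Without 12 h replicate 2, 11 of the 65 called genes kept their call, and without 15 h replicate 1, 10 did. All of those were genes of the naming rule, so none of these 28 rises kept its call in either fit. None of the 28 passed when every probe set was tested.

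Mitochondrial ribosomal protein and cholesterol synthesis genes had positive medians and no calls. Of 37 mitochondrial ribosomal proteins 27 had every array above both controls (73%, against 11.9% of all genes), with a median of 0.25. Of 19 cholesterol synthesis genes 12 did (63.2%), with a median of 0.24. In limma 0 members of either list passed, while 26 and 11 had an unadjusted p under 0.05 and a positive difference. Of all 19938 genes 1498 did. Msmo1 and Idi1, enzymes of the sterol pathway, differed by 0.41 (adjusted p = 0.0647) and 0.51 (adjusted p = 0.0798). The 39 DNA replication genes had a median of 0.03 and 31 mitosis genes one of -0.06. None passed in limma, and 5 and 2 had an unadjusted p under 0.05, as did 12.1% of all genes. Of the replication genes 9 lay above both controls on all 4 arrays (23.1%, against 11.9% of all genes) and 2 below, and their median was -0.07 without control replicate 1 and 0.108 without control replicate 2. Control replicate 2 exceeded replicate 1 by a median of 0.291 over the mitosis genes, and the mitosis median was -0.246 and 0.108 without controls 1 and 2 in turn. Of 18 MYC and G1 genes none passed, with 6 lower at an unadjusted p under 0.05, as were 906 of all 19938 genes. Myc overlapped the controls at 0.23 (adjusted p = 0.489).

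**Figure D4:**
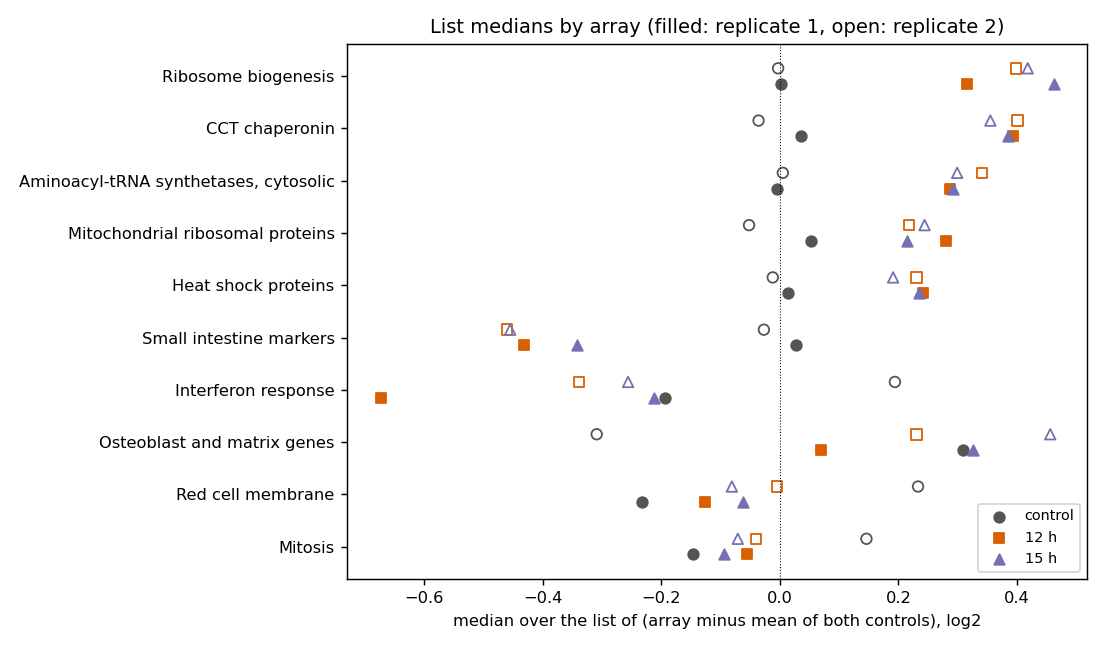
Median over each of 10 gene lists of the array's level minus the mean of both controls (log2, horizontal axis), 1 point per array, filled for replicate 1 and open for replicate 2. In the 5 upper lists the controls (circles) sit close to 0 and all 12 h (squares) and 15 h (triangles) points lie to their right; the controls of the osteoblast list are 0.618 apart and those of the red cell membrane list 0.465, and in both they bracket later arrays.

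Bone and cartilage genes gave large differences on wide spreads. Of 20 osteoblast and matrix genes 2 rose, Sema3a and Adamts5, and 6 had every array above both controls (30%, against 11.9% of all genes). Like the other lists, this list was written with earlier results of these data known, so its counts only describe. Adamts5, a protease of cartilage aggrecan, measured 8.34 and 8.35 in the controls, 9.12 and 9.14 at 12 h, and 9.08 and 9.40 at 15 h. The controls were almost equal, 15 h replicate 2 was highest, and the rise was 0.84 ± 0.10 (adjusted p = 0.0102). Col10a1, outside the list, went from 7.18 and 7.58 to 8.08 and 8.47 at 12 h and 8.48 and 8.68 at 15 h, a rise of 1.04 ± 0.16 (adjusted p = 0.0336). Mmp13, the collagenase of osteoblasts and hypertrophic cartilage, measured 10.67 and 9.78 in the controls, 11.37 and 11.02 at 12 h, and 12.01 and 12.50 at 15 h. All 4 arrays lay above the controls and both 15 h arrays above both 12 h arrays, yet the pooled difference of 1.501 ± 0.37 did not pass (adjusted p = 0.137); at 15 h alone it was 2.03 ± 0.28 (adjusted p = 0.0477). Fgf23, the bone hormone that lowers phosphate, measured 7.48 and 6.98 in the controls, 8.06 and 8.60 at 12 h, and 8.97 and 8.78 at 15 h. Its arrays did not overlap the controls, and the difference of 1.37 ± 0.27 did not pass (adjusted p = 0.0694). With all 13 arrays Fgf23 passed, at an adjusted p of 0.0364 with the run as a fixed term and 0.0126 as a random block. Under the other 16 of 18 settings Fgf23 did not pass. It belongs to 15 osteocyte and phosphate genes, of which 0 passed in limma, 2 had an unadjusted p under 0.05, and the median was 0.13. Bone transcripts differed between the controls as well. Control replicate 2 was lower than replicate 1 by a median of -0.618 over the osteoblast and matrix list and -0.430 over the osteocyte list, and the matrix list's median of 0.23 was 0.608 without control replicate 1 and -0.126 without control replicate 2. Adamts5 lost its call without control replicate 2 (adjusted p = 0.0835), and Col10a1 in 7 of 8 such fits, with adjusted p up to 0.114 without 12 h replicate 2. The part of the bone content of each sample in these rises was not tested.

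The remaining named rises were Asb17, an ankyrin repeat protein with a SOCS box, at 0.85 ± 0.13 (adjusted p = 0.033), and Mexis, a long noncoding RNA of macrophages, at 0.85 ± 0.13 (adjusted p = 0.0306). Asb17 measured 5.93 and 6.22 in the controls and 6.69 to 7.08 at 12-15 h, and Mexis 6.92 and 7.32 in the controls and 7.87 to 8.20. For Mexis 3 of the 4 arrays lay close together and 15 h replicate 2 lay above them. Each lost its call in 7 of 8 fits that left out 1 array, with adjusted p up to 0.111 and 0.0942, both without 12 h replicate 2. On the 48 h arrays Asb17 was at 6.65 and 6.88 and Mexis at 7.95 and 7.94.

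Among the falls, 6 of the 12 genes were members of the list of 30 small intestine markers. No intestine marker rose, and the list's median was -0.38. All 4 arrays at 12-15 h lay below both controls in 23 (76.7%, against 10.2% of all genes) and above both in 1. Fabp2, the fatty acid binding protein of enterocytes, measured 7.62 and 7.12 in the controls, 5.35 and 5.15 at 12 h, and 5.48 and 5.37 at 15 h. It fell by 2.04 ± 0.15 (adjusted p = 0.000904), and the 4 later arrays lay close together far below the controls. Reg3g, an antimicrobial lectin of the gut, measured 7.61 and 7.54 in the controls, 5.53 and 5.50 at 12 h, and 6.11 and 5.77 at 15 h. It fell by 1.85 ± 0.15 (adjusted p = 0.00108), and its 15 h arrays both lay above its 12 h arrays. Reg3b, its close relative, went from 7.43 and 7.12 to 5.78 and 5.17 at 12 h and 5.80 and 5.63 at 15 h, and it fell by 1.68 ± 0.17 (adjusted p = 0.00371). Clca4b, a chloride channel regulator of gut epithelium, went from 6.19 and 6.03 to 4.14 and 4.57 at 12 h and 4.870 and 4.997 at 15 h, and it fell by 1.47 ± 0.20 (adjusted p = 0.0227). Muc3, an intestinal mucin, and Apoa1, the main protein of high density lipoprotein, made in liver and gut, fell by 0.90 ± 0.12 (adjusted p = 0.0227) and 0.81 ± 0.14 (adjusted p = 0.0457). Clca4a, which neighbours Clca4b on chromosome 3 and is not in the list, fell by 0.48 ± 0.08 (adjusted p = 0.0457). Whether the probes of such close relatives share signal was not tested. Clca4b lost its call without either control, 12 h replicate 2 or 15 h replicate 1 (adjusted p up to 0.12). Muc3 lost it without any 1 of the 4 arrays at 12-15 h (up to 0.0892), and Apoa1 and Clca4a in all 8 fits that left out 1 array (up to 0.179).

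The intestine transcripts differed over the whole run, not only between these groups. Summed on the linear scale the 30 markers gave 3000 and 2804 in the controls and 1889 to 2017 on the 4 arrays at 12-15 h. The sum was 1910 on the 9 h array of the run, 2610 and 2335 at 48 h, and 37368 on the 4 h array. Reg3g reached 12.32 on that 4 h array and lay at 5.40 at 9 h and at 5.27 and 5.17 at 48 h. In the smaller run the third control had Reg3g at 7.71, above both 9 h arrays at 5.41 and 5.54. For Reg3g the 3 controls and the 4 h array therefore stood high and every array from 9 h on stood low, while the sum at 48 h lay between the controls and the 12-15 h arrays. Between controls and 12-15 h the sums of other tissues overlapped, but most liver and muscle markers also lay lower. Of 22 liver markers 19 had a difference below 0 and 3 above. All 4 arrays lay below both controls in 8 of them (36.4%, against 10.2% of all genes) and above in 1. The mean log2 level of the liver markers was 5.837 and 5.929 in the controls and 5.739 to 5.833 at 12-15 h. Of 21 muscle markers 20 had a difference below 0 and 1 above, with 4 below both controls (19%) and 0 above. The 22 liver markers summed to 1543 and 1655 in the controls and 1576 to 1674 at 12-15 h, with 1933 on the 4 h array and 6604 and 5289 at 48 h. The 21 skeletal muscle markers summed to 5487 and 5120 in the controls and 3015 to 6535 at 12-15 h, and at 19110 they too were highest on the 4 h array. Of the liver and muscle markers 0 passed in limma, with 4 and 0 at an unadjusted p under 0.05. The part of intestinal RNA in the falls was not tested.

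The other 5 falls were of unlike kinds. Dnase1l3, a secreted nuclease of macrophages and dendritic cells, measured 7.88 and 8.04 in the controls, 7.38 and 7.36 at 12 h, and 7.03 and 7.05 at 15 h. Its 15 h arrays lay below its 12 h arrays, and it fell by 0.76 ± 0.12 (adjusted p = 0.0384). Cpt1a, which admits fatty acids to mitochondria, went from 10.63 and 10.35 to 9.94 to 9.99 on the 4 arrays, and it fell by 0.53 ± 0.09 (adjusted p = 0.0457). Fmo2, a flavin monooxygenase, fell by 0.83 ± 0.13 (adjusted p = 0.0388), and Rec114, a meiotic recombination gene, by 0.69 ± 0.12 (adjusted p = 0.0457). Dbp, an output gene of the circadian clock, measured 8.35 and 8.17 in the controls, 7.68 and 7.57 at 12 h, and 7.55 and 7.76 at 15 h, and fell by 0.62 ± 0.09 (adjusted p = 0.0322). It was the only one of 18 clock genes to pass. Its relatives Tef and Hlf, and Per2 and Per3, were below both controls without passing (-0.31, -0.24, -0.23 and -0.32), whereas Noct and Arntl, the gene of the clock factor BMAL1, lay above both at 0.91 (adjusted p = 0.0525) and 0.23 (adjusted p = 0.391). The hour of collection is not in the labels, and its part in these values was not tested. Leaving out 1 array ended the call of Dbp in 6 of 8 fits, and of Dnase1l3, Cpt1a, Fmo2 and Rec114 in 7, with adjusted p up to 0.114 (without 12 h replicate 2), 0.27, 0.14 (without 15 h replicate 1), 0.15 and 0.261, the others without control replicate 2.

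Interferon response genes were low as a list without any call. All 24 members had differences below 0, as did 10145 of all 19938 genes, and the median was -0.395. On all 4 arrays 9 lay below both controls (37.5%, against 10.2% of all genes). In limma 0 passed and 12 had an unadjusted p under 0.05, as did 12.1% of all genes. Ifit3, an antiviral effector, measured 9.40 and 9.95 in the controls, 8.44 and 8.67 at 12 h, and 9.06 and 9.05 at 15 h. Both 12 h arrays lay under both 15 h arrays, and the pooled difference was -0.87 ± 0.21 (adjusted p = 0.135). Irf7, the factor that amplifies the response, differed by -0.55 ± 0.15 (adjusted p = 0.193). Control replicate 2 exceeded replicate 1 by a median of 0.389 over the list, whose median was -0.59 without control replicate 1 and -0.121 without control replicate 2.

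No list of other marrow cells held a called gene. Medians were -0.01 and -0.03 for primary and late neutrophil granule genes (10 and 19 genes), -0.14 for 23 B lineage genes, -0.05 for 22 T and NK cell genes, -0.04 for 23 macrophage genes, -0.15 for 14 megakaryocyte genes, -0.07 for 14 stem and progenitor genes, 0.02 for 19 stromal and endothelial genes and -0.04 for 14 genes of antigen presentation. At an unadjusted p under 0.05, limma held 1, 1, 4, 1, 3, 5, 1, 1 and 3 genes of these lists, beside 12.1% of all genes. Megakaryocyte genes lay below both controls in 6 of 14 cases (42.9%, against 10.2% of all genes), among them Gp9, a subunit of the platelet von Willebrand factor receptor, at -0.40 (adjusted p = 0.0785). That share was 35.7% for antigen presentation, 30% for primary granule and 28.6% for stem and progenitor genes. It was 17.4% for macrophage and for B lineage, 13.6% for T and NK cell, 5.26% for late neutrophil and 0% for stromal and endothelial genes. The megakaryocyte median was -0.281 without control replicate 1 and -0.074 without control replicate 2. Hypoxia and glycolysis genes (28), glucocorticoid and metallothionein genes (20) and inflammatory cytokines (23) had medians of 0.05, 0.13 and -0.02, with 0 called in limma and 4, 5 and 3 at an unadjusted p under 0.05. Il1b, a cytokine, lay above both controls at 0.68 (adjusted p = 0.116).

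Whether 12 h and 15 h differ from each other was tested in the fit that keeps them apart. In limma 0 genes passed (0%), 636 (3.19%) had an unadjusted p under 0.05, and each alternative fit also called 0. Among the 65 genes called for the pooled group the largest difference between the times was 0.577, for Clca4b, which was less low at 15 h. Reg3g was 0.43 higher at 15 h than at 12 h, with an unadjusted 95% interval of 0.16 to 0.69, and Erfe 0.29 higher, with an interval of 0.07 to 0.50. For Cish the interval ran from -0.25 to 0.60 and for Hspe1 from -0.26 to 0.23, both holding 0. Podxl was 0.59 higher at 15 h (0.29 to 0.89). The 6 genes that passed at 15 h but not in the pooled group, named after their values were seen, were Podxl, Shmt2, Cda, Osmr and Mmp13, which were higher, and Zg16, an intestinal lectin, which was lower. Osmr, a receptor of oncostatin M, measured 7.62 and 7.54 in the controls, 8.10 and 8.19 at 12 h, and 8.43 and 8.65 at 15 h, and at 15 h the difference was 0.96 ± 0.14 (adjusted p = 0.0491). Cda, which deaminates cytidine, measured 7.38 and 7.36, then 7.80 and 8.13, then 8.45 and 8.42, a difference at 15 h of 1.06 ± 0.13 (adjusted p = 0.0245).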

How the data were processed

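Femoral marrow RNA was hybridised to 1-colour Affymetrix Mouse Gene 1.0 ST arrays. The deposited table gives log2 levels that the authors made with RMA, per the submitters' processing notes; its version, and which arrays were normalized together, are not given in the sources used here. Scanner files were not used here. Of 35557 probe sets, 21789 have 1 gene symbol in the platform annotation, 1621 several and 12147 none; only the first kind was named. Symbols of 21698 were updated through Entrez identifiers, and for 999 genes with several probe sets the one with the highest mean was used, leaving 19938 genes.

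From these log2 values limma 3.58.1 (R 4.3.3) was fitted to the 10 arrays of the larger run: control (2), 4 h (1), 9 h (1), 12-15 h (4) and 48 h (2), with 5 residual and 5.11 prior degrees of freedom. A second fit kept 12 h and 15 h apart (4 residual and 5.17 prior). The median standard error was 0.0964 for 12-15 h and 0.112 for either time. p-values were adjusted by Benjamini-Hochberg over all genes, with a threshold of 0.05, and 95% intervals come from the same fits. The fits were tested on simulated data. The number of arrays limits the precision. Samples were grouped by time label; replicate numbers follow accession order and pair nothing.

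The comparison, its genes and the 38 gene lists, written from textbook knowledge, were chosen with earlier results of these data known, and lists were described by counts and medians, with no set test. Named genes were the 12 largest rises and 12 largest falls past the threshold with no overlap between groups (predicted genes and small nucleolar and micro RNAs skipped), all genes past it at both times, up to 4 members past it of each list by smallest p, and Erfe, Cish, Pim1, Socs3, Plek2, Podxl, Twsg1, Hamp, Tfrc, Alas2, Epor and Fgf23. Alternatives added the smaller run, used only 6 arrays, separate times, all probe sets or no dim genes, renormalized or weighted the arrays, changed the moderation, or left out each array. Promoters came from a RefSeq table of GRCm38.p6. Plots used matplotlib 3.10.9 (Python 3.11.15). Bglap and the adult globins were not named by the annotation used here.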

Additional observations from a re-analysis of the deposited data

Results flagged for a closer look

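Within the 4 arrays at 12-15 h, 1 array stood apart from the other 3 in 11 of 83 items checked. These were 4 of the 45 named genes and 7 of the 38 list medians. Independent draws from 1 normal distribution would give about 1 in 20. Here the 4 arrays span 2 times, the items share arrays, and most named genes were chosen by their values. The 11 of 83 can therefore not be judged against that rate. The measure is the gap to the nearest array over the range of the 4, and values above Dixon's critical value for 4 samples are given. For Mexis (0.891), Adamts5 (0.835) and Map2k3os (0.896) 15 h replicate 2 was the highest array, and for Muc3 (0.889) it was the lowest. It was also the array that stood apart in the B lineage median (0.872), and 15 h replicate 1 in the DNA replication median (0.846). Among the other lists, 12 h replicate 1 stood apart for globins (0.891), erythroid transcription factors (0.857) and primary neutrophil granule genes (0.883), and 12 h replicate 2 for heme synthesis (0.835) and late neutrophil genes (0.94).

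When every probe set was tested, 2 with no single gene symbol passed, and these lie outside the comparison of named genes. Probe set 10461158 measured 8.42 and 8.32 in the controls, 9.24 and 9.20 at 12 h, and 9.12 and 9.11 at 15 h, a rise of 0.801 ± 0.076 (adjusted p = 0.0287 in limma). Probe set 10570668 measured 6.89 and 7.03, then 6.06 and 6.13, then 6.26 and 6.16, a difference of -0.811 ± 0.085 (adjusted p = 0.0489). Neither group overlapped its controls.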

How the results depend on the processing

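No comparison of 15 h with 12 h called a gene under any setting. Against 65, 10, 22 and 10 genes (12-15 h, 12 h, 15 h and both times), the calls were 197, 21, 51 and 19 with all 13 arrays and the run as a fixed term, 247, 116, 81 and 46 with the run as a random block, 10, 2, 1 and 1 with every probe set, and 180, 16, 68 and 16 with a variance trend and robust moderation. With only the 6 arrays compared, 37, 13 and 5 genes passed at 12-15 h, 15 h and both times. At 12-15 h the count was 121 without the dimmest 30% of genes, 41 after another quantile normalization, and 37 with array weights or with separate times. The share of calls that were higher was 81.5%, and 79.3% to 80.5% under the other scalings. Without 1 array in turn the counts ran from 10 to 195 at 12-15 h, 3 to 10 at 12 h, 2 to 27 at 15 h and 2 to 9 at both times; a group left with 1 array is assumed to vary like the others. Of the 65 genes, 61 were among the 197, 62 among the 247 and 65 among the 180. Of 37 named genes past the threshold, 8 (Cish, Erfe, Plek2, Sema3a, Ankrd36, Map2k3os, Fabp2 and Reg3g) kept their call under all 18 settings, and Reg3b in all 8 fits without 1 array. Hamp and Epor changed sign without control replicate 2, to 0.0032 and 0.147, and stood at -0.415 and -0.477 without control replicate 1. The median of 17 of 38 lists changed sign when some array was left out. No paired analysis was possible because the labels give no replicate numbers. The cause of these shifts was not tested. Dim probes and 2 arrays per time limit what could be detected.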
